A study of Mus musculus with 24 samples.

Results

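LPCAT3 loss was examined in inguinal white adipose tissue (iWAT, the subcutaneous fat depot of the mouse groin) of male mice fed a high-fat diet enriched in saturated fat. The comparison holds 8 of the 24 libraries of the series: 4 labelled KO and 4 labelled WT, both on the diet named SFA in the labels. All 15259 genes that passed a filter on low counts were tested. In these groups the mice were 18 to 22 weeks old and the diet gave 60% of its calories as fat. The other 16 libraries came from the same 2 genotypes on diets enriched in omega-6 (n6) or omega-3 (n3) fat, and they enter here only to share an estimate of the spread and to test whether the genotype effect differed between diets. The design text names the knockout AdL3KO. The sources used here name neither the construct, nor a Cre driver, nor the strain. The series title speaks of mature adipocytes, while the labels give the tissue as iWAT and their protocols describe no step that separates adipocytes, so the libraries are treated as whole tissue. The labels do not say that each library came from a separate mouse, and p-values then measure only the spread between these samples, which may be technical.

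LPCAT3 is a membrane-bound acyltransferase of the endoplasmic reticulum that moves polyunsaturated acyl chains onto lysophospholipids, and so sets how unsaturated the membrane phospholipids are. Membrane composition is also read by the machinery that releases SREBP transcription factors, which drive the genes of fatty acid and cholesterol synthesis. In white fat these pathways feed triglyceride storage, and the adipocyte also secretes hormones such as leptin, adiponectin and adipsin.

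Each SFA library held 48.5 to 57.4 M (mega) estimated read counts (median 54.5 M). Values are given as CPM, read counts scaled to a common library total with TMM, which compares a gene between libraries and not genes of different length with each other. A gene was called at a Benjamini-Hochberg adjusted p of at most 0.05 in edgeR's quasi-likelihood test. The first principal component of the 8 libraries held 66.4% of the variance and separated the genotypes, with WT scores of -23.8 to -17.0 and KO scores of 16.1 to 24.9. A few libraries stood apart in markers of other cell types. Markers of B cells summed to 40.2 CPM in WT replicate 3 and 31.6 CPM in KO replicate 2, against 3.03 to 9.51 CPM in the other 6 libraries. Skeletal muscle markers were highest in KO replicate 1, at 83.6 CPM, and stromal and macrophage markers were lowest in KO replicate 3. These pairs of libraries were left out in turn as added alternatives.

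The targeted gene was measured first. Lpcat3 (chr6:124663027-124704418, plus strand, mm10) was at 97.8, 118, 129 and 123 CPM in the 4 WT libraries and at 80.99, 73.8, 76.2 and 70.8 CPM in the 4 KO libraries. Every KO library was below every WT library, and the means were 117 ± 13.5 and 75.4 ± 4.32 CPM (SD, n = 4 each). The log2 fold change was -0.63 (SE 0.06, adjusted p = 1.88e-08). The CPM level of Lpcat3 was thus 1.55-fold lower in KO, in tissue that also holds cells other than adipocytes. The deposited TPM values, which divide by the transcript length that the quantifier inferred, gave no fall: the log2 difference was 0.07 in TPM as deposited and 0.23 in TPM rescaled by TMM. The count of Lpcat3 per unit of TPM, set against the median gene of each library, was 0.864, 0.849, 0.835 and 0.852 in WT and 0.475, 0.474, 0.461 and 0.463 in KO. On the log2 scale this ratio was -0.86 in KO over WT, the lowest of 12783 genes compared. A lower ratio means a shorter inferred transcript length, so the counts and the TPM of this gene answer differently.

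The genes around Lpcat3 were counted as a local check. Of 129 genes tested within 5 Mb on either side, 51 were called (39.5%), and 4 were called with a change of at least 2-fold (3.1%). These shares were close to those of all tested genes, 39.9% and 3.28%. Clstn3, which encodes a calsyntenin and was chosen after its values were seen, was one of the 4. It stood at 32.1, 44.3, 44.6 and 50.05 CPM in WT and 106, 100.1, 116 and 122 CPM in KO, a log2 fold change of 1.38 (SE 0.11, adjusted p = 3.21e-09).

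Across the transcriptome, 6086 of 15259 genes were called (39.9%), 3057 higher (20%) and 3029 lower (19.9%) in KO. At an unadjusted p under 0.05 there were 7219. Most called changes were small, with a median absolute log2 fold change of 0.32. Of the tested genes 8.53% were called with a change of at least 1.5-fold. Changes of at least 2-fold were found in 501 called genes (3.28%), 219 higher and 282 lower, and changes of at least 4-fold in 49 higher and 48 lower. The 4 KO and 4 WT values did not overlap in 5513 genes (36.1%), of which 5026 (32.9% of all tested) were also called. The split between higher and lower depended on the scale. In the deposited TPM on the log2(TPM + 1) scale, tested with limma, the median gene was shifted by -0.14 and 1051 genes were higher against 5395 lower (16.3% higher). Mitochondrially encoded transcripts took 9.08 to 10.9% of TPM in WT and 14.2 to 15.3% in KO, and Scd1 alone took 1.82 to 1.96% and 3.13 to 3.35%. After TMM rescaling of the same TPM values the split was 2477 higher and 2601 lower.

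**Figure D1:**
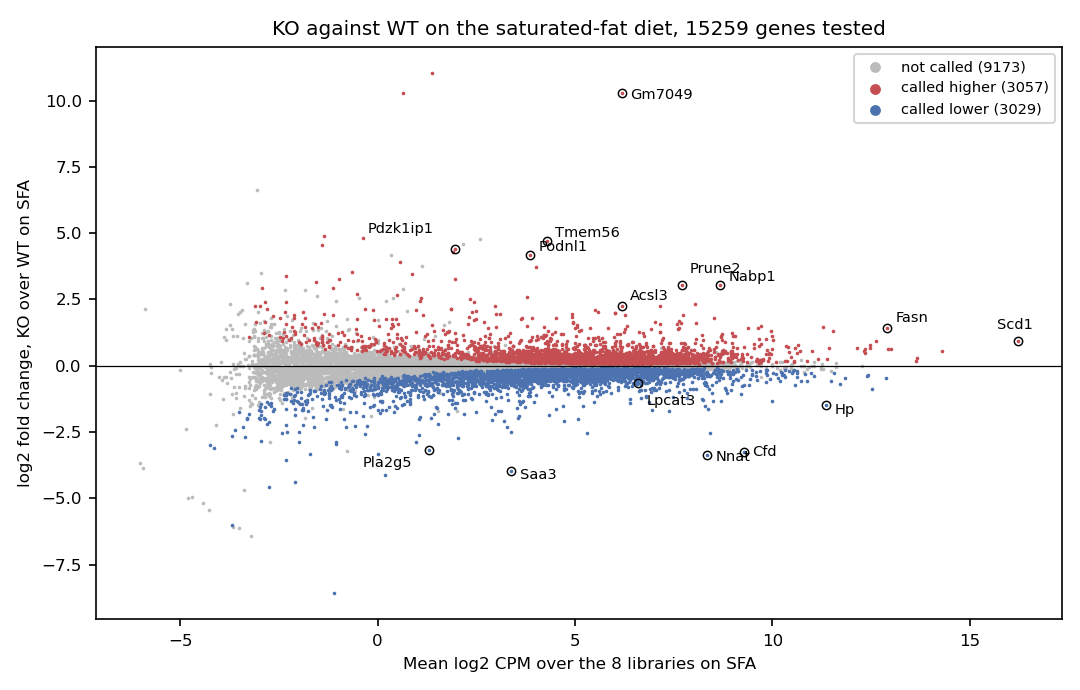
Each point is a gene. The x axis is its mean log2 CPM over the 8 SFA libraries, the y axis is its log2 fold change of KO over WT, red and blue points are the 3057 and 3029 genes called higher and lower, and named genes are ringed. Called changes lay on both sides of 0 at nearly equal number, and Scd1 and Fasn rose among the most abundant genes.

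The largest rises among genes of at least moderate level (mean log2 CPM of at least 1, predicted genes left out) began from low levels in WT. Only genes whose groups did not overlap were considered. Tmem56, a membrane protein of the TLC-domain family, rose from 0.775, 1.92, 1.94 and 1.18 CPM to 36.5, 31.1, 54.1 and 27.8 CPM, a log2 fold change of 4.69 (SE 0.32, adjusted p = 5.21e-10). The lowest KO library was more than 10 times the highest WT library. Pdzk1ip1, a small membrane protein that binds the scaffold PDZK1, was at 0.211, 0.395, 0.373 and 0.433 CPM in WT and 9.11, 6.74, 8.21 and 5.63 CPM in KO (log2 fold change 4.39, SE 0.26, adjusted p = 7.73e-12). Podnl1, a small leucine-rich protein of the matrix, was at 1.37, 1.58, 1.72 and 1.34 CPM and 34.9, 23.5, 35.9 and 15.6 CPM (log2 fold change 4.19, SE 0.25, adjusted p = 3.34e-11). KO replicate 4 was the lowest KO library for all 3 genes.

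More abundant genes rose as well. Nabp1, a protein that binds single-stranded DNA, went from 60.6, 72.4, 123 and 99.5 CPM to 791, 628, 785 and 700.2 CPM, and Prune2 from 30.6, 46.96, 60.2 and 42.6 CPM to 413, 382, 385 and 304 CPM. Their log2 fold changes were 3.03 (SE 0.2, adjusted p = 2.54e-10) and 3.04 (SE 0.15, adjusted p = 3.15e-12). Other leading rises were Chodl (3.27), the haem-binding protein gene Hebp2 (2.61), Xirp2 (2.55), SPRY3 (2.52), the esterase gene Aadac (2.44) and the hyaluronan link protein gene Hapln4 (2.42), all as log2 fold changes. SPRY3 is spelled as in the deposited table, because its name matched no single symbol of the annotation used. Xirp2, a muscle actin-binding protein, had its highest values in KO replicates 1 and 3, at 4.86 and 4.65 CPM, and KO replicate 1 was also the library highest in muscle markers.

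The largest falls were taken under the same limit on level, and among genes whose groups did not overlap. Saa3, an acute-phase apolipoprotein, was at 17.8, 19.5, 17.5 and 23.8 CPM in WT and 1.69, 1.18, 1.08 and 1.12 CPM in KO, a log2 fold change of -3.95 (SE 0.25, adjusted p = 6.91e-11). Cfd, the serine protease adipsin that activates the alternative complement pathway, was at 1291, 1203, 853 and 1118 CPM in WT and 91.02, 83.3, 112 and 188 CPM in KO. It fell by 3.24 on the log2 scale (SE 0.24, adjusted p = 1.38e-09). Nnat, an imprinted gene for a small membrane proteolipid, was at 624, 688, 482 and 588 CPM in WT and 30.2, 32.8, 35.5 and 134 CPM in KO (log2 fold change -3.36, SE 0.37, adjusted p = 5.47e-07). KO replicate 4 was far above the other 3 KO libraries for Nnat and highest for Cfd. Itgad, which encodes the integrin alpha D chain of myeloid cells, was at 70.5, 67.3, 57.4 and 73.1 CPM and 15.2, 10.3, 10.4 and 10.2 CPM (log2 fold change -2.54, adjusted p = 2.57e-11), beside a summed level of 10 macrophage markers of 1257 to 1421 CPM in WT and 764 to 1007 CPM in KO. Among those 10 markers Lyz2 had the lowest log2 fold change, -0.72. Other leading falls, as log2 fold changes, were Pla2g5 (-3.17), Cyp2f2 (-2.71), the homeobox gene Cux2 (-2.62), the calcium channel gene Cacna1e (-2.48), the glutamate carboxypeptidase gene Folh1 (-2.30), the GABA receptor gene Gabrr2 (-2.20) and the sialyltransferase gene St6galnac5 (-2.08).

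**Figure D2:**
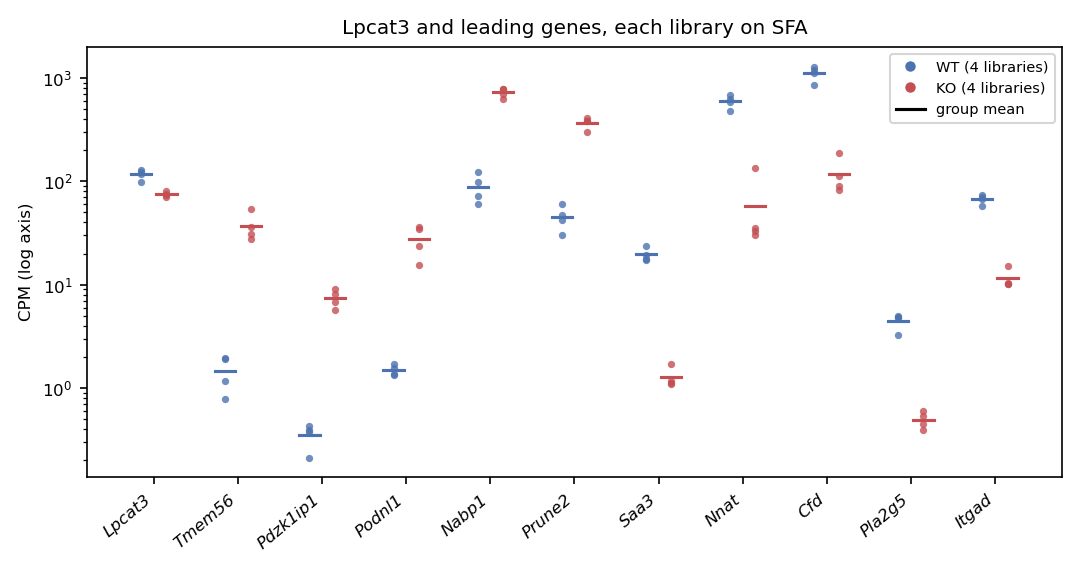
CPM on a log axis for Lpcat3, 5 leading rises and 5 leading falls, with 1 point per library (blue WT, red KO, 4 each) and a bar at each group mean. The leading genes were chosen among genes whose groups did not overlap. The 2 groups did not overlap for Lpcat3 either, and it had the smallest change.

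Related enzymes of phospholipid remodelling were examined next. Gene lists are described by how many members were called. Each such count stands against all tested genes, of which 20% were called higher and 19.9% lower. Single members are named by the smallest p or, where their known role makes them of interest, after their values were seen. Of 12 other acyltransferases of the Lands cycle and of phosphatidic acid or lysocardiolipin acylation, 2 were called higher and 1 lower, with a median log2 fold change of -0.02, where 20% and 19.9% of all genes were called in each direction and the median gene was at -0.0035. Mboat2, a lysophospholipid acyltransferase, was at 2.17, 2.22, 2.31 and 2.52 CPM in WT and 2.56, 3.43, 3.44 and 2.68 CPM in KO (log2 fold change 0.39, SE 0.13, adjusted p = 0.0182). Lclat1, which acylates lysocardiolipin and lysophosphatidylinositol, moved by 0.15 (adjusted p = 0.0041, but -0.03 in the deposited TPM) and Agpat4 by -0.25 (adjusted p = 0.032). The call of Mboat2 was lost without KO replicate 2, KO replicate 3 or WT replicate 1 (adjusted p 0.0515 to 0.0728), and that of Agpat4 without KO replicate 3, KO replicate 4, WT replicate 1 or WT replicate 2 (0.0515 to 0.131). Without KO replicate 3 or WT replicate 1, 1 of the 12 was called, and with KO replicates 1 and 3 both left out none was in edgeR's test. The other LPCAT genes were not called: Lpcat1 was at 16.4, 14.5, 17.6 and 15.2 CPM in WT and 14.99, 15.9, 14.4 and 14.98 CPM in KO, Lpcat2 had a log2 fold change of -0.39 (SE 0.17, adjusted p = 0.0829) and Lpcat4 of 0.02 (SE 0.12). Mboat7, which puts arachidonic acid on phosphatidylinositol, was at 24.4, 25.01, 26.9 and 26.97 CPM in WT and 28.3, 27.97, 27.4 and 27.9 CPM in KO, with no overlap and an adjusted p of 0.0539. In the deposited TPM the 12 split the other way, with 0 higher and 5 lower.

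Enzymes that cut phospholipids moved in both directions. Of 19 phospholipases and lysophospholipases, 7 were higher and 6 lower, with a median of -0.06 (3 higher and 10 lower in the deposited TPM). Of all tested genes 20% were called higher and 19.9% lower. Without KO replicate 3 the split was 5 higher and 7 lower. Pla2g5 and Pla2g2e, both genes of secreted phospholipases A2, moved in opposite directions. Pla2g5 was at 4.76, 5.003, 3.29 and 4.87 CPM in WT and 0.394, 0.542, 0.445 and 0.599 CPM in KO (log2 fold change -3.17, SE 0.18, adjusted p = 3.53e-12), whereas Pla2g2e was at 10.99, 15.3, 13.4 and 11.8 CPM and 32.5, 26.2, 36.2 and 24.5 CPM (log2 fold change 1.21, SE 0.14, adjusted p = 5.50e-07). The groups did not overlap for Pla2g2e, and for Pla2g5 this was a condition of its choice as a leading fall. Gde1, a phosphodiesterase of glycerophospholipids, rose by 0.46 (adjusted p = 3.01e-07). In the synthesis of phosphatidylcholine and phosphatidylethanolamine, 5 of 13 genes were higher and 2 lower (4 and 5 in the deposited TPM). The same shares of all tested genes stand beside this count. Pcyt2, the rate-limiting step towards phosphatidylethanolamine, was at 40.4, 47.2, 49.5 and 48.3 CPM in WT and 80.5, 71.6, 80.6 and 73.6 CPM in KO, a log2 fold change of 0.72 (SE 0.05, adjusted p = 9.12e-11). Chpt1 and Pemt, which make phosphatidylcholine, rose by 0.50 and 0.52, and Etnk1, the ethanolamine kinase, by 0.37.

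Most enzymes that supply activated acyl chains rose. Of 15 acyl-CoA synthetases, thioesterases and carriers, 10 were higher and 3 lower (median 0.27), and 4 and 3 in the deposited TPM. Acsl3, an acyl-CoA synthetase of the endoplasmic reticulum and of lipid droplets, was at 21.6, 26.2, 28.7 and 25.5 CPM in WT and 131, 112, 128 and 111 CPM in KO, 4.73-fold higher (log2 fold change 2.24, SE 0.083, adjusted p = 1.23e-14). The acetate-activating enzyme gene Acss2 rose by 1.43 (adjusted p = 3.26e-12), Acsl1, the main long-chain synthetase of adipocytes, by 0.68 (adjusted p = 1.66e-08), and Acsl4, which prefers arachidonic acid, by 0.27. Acsm3, a synthetase for medium chains, fell by 2.87 on the log2 scale (adjusted p = 1.52e-05), at a mean log2 CPM of 0.96, just under the limit for the leading falls.

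Desaturases and elongases shape the same acyl chains, and 12 of 17 were higher with 2 lower (median 0.92, and 9 and 4 in the deposited TPM). Scd1, the stearoyl-CoA desaturase that makes monounsaturated from saturated chains, was the most abundant called gene with a change of at least 1.5-fold. It stood at 51886, 54563, 50189 and 54372 CPM in WT and 96920, 94551, 107223 and 100619 CPM in KO, a log2 fold change of 0.92 (SE 0.078, adjusted p = 2.54e-09). Scd2 rose by 1.31, the elongase Elovl6 by 1.25 and the enoyl reductase Tecr by 1.16. The desaturases of polyunsaturated chains differed from each other: Fads2, the delta-6 desaturase, rose by 1.32 (SE 0.088, adjusted p = 5.78e-11) while Fads1, the delta-5 desaturase, fell by 0.23 (SE 0.081, adjusted p = 0.0287). Fads1 overlapped between groups at KO replicate 4: it stood at 56.5, 49.1, 46.3 and 44.6 CPM in WT and 40.7, 41.04, 36.4 and 49.97 CPM in KO, and Fads2 at 12.5, 11.5, 11.3 and 10.5 CPM and 29.1, 28.8, 30.6 and 25.7 CPM. In fatty acid synthesis from acetyl-CoA, 12 of 15 genes were higher and none lower (median 0.79), and Fasn, the synthase itself, was at 3571, 4052, 4769 and 4384 CPM in WT and 10936, 9944, 12262 and 11380 CPM in KO (log2 fold change 1.41, SE 0.074, adjusted p = 1.07e-12). Acacb, the acetyl-CoA carboxylase at mitochondria, rose by 1.79. Mlxipl, which encodes the carbohydrate-sensing factor ChREBP, was not called (0.06, adjusted p = 0.707).

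In cholesterol synthesis 19 of 21 genes were higher and none lower, with a median of 1.04 (17 higher and 1 lower in the deposited TPM). Lss, the cyclase that makes lanosterol, was at 87.03, 102, 119.9 and 96.7 CPM in WT and 332, 300.5, 310.2 and 290.1 CPM in KO (log2 fold change 1.60, SE 0.074, adjusted p = 2.22e-13). Ebp and Ggps1 were not called. Genes that control this pathway were a separate list. Of 16 genes for SREBP processing, feedback and sterol uptake, 6 were higher and 2 lower (median 0.02), against 5 and 8 in the deposited TPM. Of all tested genes 20% were called higher and 19.9% lower. Insig1, which holds SREBP in the endoplasmic reticulum and is itself an SREBP target, was at 479, 679, 659 and 614 CPM in WT and 1349, 1162, 1165 and 1228 CPM in KO (log2 fold change 1.01, SE 0.085, adjusted p = 2.65e-09). Srebf1 rose by 0.44 (SE 0.069, adjusted p = 2.26e-05), whereas Srebf2 stood at -0.11 (SE 0.046, adjusted p = 0.0529) and the escort protein gene Scap at -0.08 (adjusted p = 0.106). Npc2, which carries cholesterol out of lysosomes, rose by 0.64 while Npc1 stood at -0.02. Stard4 rose by 0.59 and Insig2 by 0.24, but Insig2 stood at -0.02 in the deposited TPM. Mbtps1, the site-1 protease that cuts SREBP, fell by 0.17 (adjusted p = 0.000104), and Rnf145, a ubiquitin ligase of this system, by 0.22.

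Promoters of the cholesterol genes are shown because their members rose together. In RefSeq promoters (GRCm38.p6, 250 bases before to 50 after each start) the NF-Y box CCAAT, read on both strands, was in 15 of the 16 cholesterol synthesis genes with an entry (93.8%), against 42.6% of 11452 tested genes and 37.4% of 32851 promoters. The core of a sterol regulatory element, searched as TCACNCCAC on both strands, was in 1 of the 16, Hmgcs1, and in 1.39% of tested genes. In fatty acid synthesis the box was in 10 of 14 genes (71.4%) and the sterol core in 1 (7.14%). The search covered only the letters as written and only these promoter windows, so other forms of the element and sites further away were not counted. The following stretches of 120 bases run 5′ to 3′ on the gene's strand and end at the annotated start, except for Hmgcs1, where the window ends 88 bases before it. Bases just after the RefSeq start were found near the beginning of a GENCODE transcript for Lss, Idi1 and Cyp51, but not for Nsdhl and Hmgcs1. The capitals mark NF-Y boxes in either direction and, in Hmgcs1, also the 9-base sterol element. The 4 other genes are those with the smallest p among the cholesterol genes that have a box in these 120 bases, chosen after the matches were seen.
Lss chr10:76531485-76531604, plus strand: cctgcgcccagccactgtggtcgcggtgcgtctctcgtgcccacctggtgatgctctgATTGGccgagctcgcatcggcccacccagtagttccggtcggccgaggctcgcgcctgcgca
Nsdhl chrX:72918401-72918520, plus strand: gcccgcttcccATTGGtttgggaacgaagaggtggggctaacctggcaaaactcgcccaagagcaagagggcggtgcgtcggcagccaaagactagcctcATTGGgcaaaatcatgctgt
Idi1 chr13:8885486-8885605, plus strand: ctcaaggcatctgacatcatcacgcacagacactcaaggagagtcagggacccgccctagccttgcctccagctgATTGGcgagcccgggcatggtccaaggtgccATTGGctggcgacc
Cyp51 chr5:4104698-4104817, minus strand: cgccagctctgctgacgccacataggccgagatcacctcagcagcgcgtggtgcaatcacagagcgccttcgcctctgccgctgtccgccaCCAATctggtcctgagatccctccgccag
Hmgcs1 chr13:119690143-119690262, plus strand: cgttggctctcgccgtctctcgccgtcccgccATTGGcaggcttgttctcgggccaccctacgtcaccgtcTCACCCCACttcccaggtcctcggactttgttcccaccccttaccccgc
Lss has 1 box, Nsdhl and Idi1 have 2 each, and Cyp51 has 1. Hmgcs1 has both motifs and rose by 0.60, and the genes printed for their small p rose by 1.60 (Lss), 1.28 (Nsdhl), 1.26 (Idi1) and 1.37 (Cyp51). Other genes with a box and no sterol core as searched, not all of them named, rose by 1.06 (Hsd17b7), 0.67 (Msmo1), 0.68 (Sc5d) and 0.14 (Mvk). The largest rise of the cholesterol synthesis list, 1.65, was in an unnamed gene of this kind. A match describes letters and not binding.

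Glucose use and NADPH supply feed lipid synthesis. Of 26 genes of glucose uptake and glycolysis 17 were higher and 4 lower (median 0.29, and 11 and 6 in the deposited TPM). Pkm, pyruvate kinase, was at 328, 333, 352 and 349 CPM in WT and 530.3, 461, 519.7 and 482 CPM in KO (log2 fold change 0.55, SE 0.044, adjusted p = 1.02e-09), and Hk2 rose by 0.47. The insulin-regulated transporter gene Slc2a4 was not called (0.18, adjusted p = 0.129), Slc2a1 fell by 0.16, and the lactate exporter gene Slc16a3 fell by 0.80. Of 13 pentose phosphate and NADPH genes 9 were higher and 2 lower (median 0.33, and 7 and 3 in the deposited TPM). G6pdx, which opens the pentose phosphate pathway, was at 311, 295, 312 and 309.7 CPM in WT and 584, 553, 598 and 576 CPM in KO (log2 fold change 0.91, SE 0.06, adjusted p = 3.55e-11). Pgd, its next dehydrogenase, rose by 0.72 and malic enzyme Me1, which shares sequence with the pseudogene Gm7049, by 1.47. H6pd, which opens the pentose phosphate pathway inside the endoplasmic reticulum, fell by 0.62.

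Triglyceride storage genes rose more often than they fell in the counts and not in the deposited TPM. In glycerol and triglyceride synthesis 9 of 15 were higher and 3 lower (median 0.34), and 6 and 6 in the deposited TPM. Agpat2, the main acyltransferase of adipocyte phosphatidic acid synthesis, was at 524, 661, 711 and 664 CPM in WT and 1431, 1279, 1495 and 1347 CPM in KO (log2 fold change 1.12, SE 0.076, adjusted p = 7.62e-11). Dgat1 rose by 0.59 and Dgat2 was not called (0.05), and the monoacylglycerol acyltransferases Mogat1 and Mogat2 fell by 0.62 and 0.65. Of 22 lipid droplet and lipolysis genes 10 were higher and 2 lower, against 5 and 6 in the deposited TPM. The droplet coat genes did not move alike: Plin5 was at 15.8, 23.2, 22.2 and 18.2 CPM in WT and 51.9, 40.4, 56.99 and 47.01 CPM in KO (1.31, adjusted p = 4.65e-08), Plin2 rose by 0.97, Plin1 stood at 0.01 and Plin4 fell by 0.34. Abhd5, the activator of adipose triglyceride lipase, rose by 0.67, while the lipases Pnpla2 (0.22) and Lipe (-0.02) were not called. Of 14 fatty acid uptake genes 7 were higher and 4 lower, against 5 and 6 in the deposited TPM. Slc27a1, a fatty acid transport protein, rose by 1.00 (SE 0.1, adjusted p = 5.50e-08), Angptl8, an inhibitor of lipoprotein lipase induced by feeding, by 1.45, and Cd36 was not called (-0.01).

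Many genes of oxidative organelles rose. Of 33 peroxisome genes 21 were higher and 4 lower (median 0.23, and 13 and 8 in the deposited TPM). Abcd3, a fatty acid carrier of the peroxisomal membrane, was at 124, 136, 141 and 137 CPM in WT and 209, 194, 232 and 204 CPM in KO (log2 fold change 0.64, SE 0.047, adjusted p = 3.30e-10), and Ehhadh, an enzyme of peroxisomal fatty acid oxidation, rose by 0.93. Pxmp2, a channel of the peroxisomal membrane, fell by 1.32 (adjusted p = 4.33e-08). Of 24 genes of mitochondrial biogenesis and dynamics 19 were higher and none lower (median 0.25, and 8 and 1 in the deposited TPM). The coactivators Ppargc1a and Ppargc1b rose by 0.73 and 0.70, and the nuclear receptor genes Esrra and Ppara by 0.46 and 1.00. Among 16 thermogenic genes 11 were higher and 1 lower (median 0.60, and 8 and 1 in the deposited TPM). Cpt1b, the muscle and brown fat form of the carnitine transferase, was at 11.6, 12.1, 14.9 and 13.6 CPM in WT and 33.2, 27.9, 35.3 and 30.99 CPM in KO (log2 fold change 1.29, SE 0.14, adjusted p = 2.70e-07), Cidea rose by 1.04 and Dio2 by 0.91. Ucp1, the uncoupling protein that defines brown adipocytes, was at 0.159, 0.451, 0.766 and 0.6398 CPM in WT and 0.335, 0.2904, 0.426 and 0.2597 CPM in KO and was not called (adjusted p = 0.401). In branched-chain amino acid breakdown 7 of 24 were higher and 7 lower (4 and 12 in the deposited TPM). In creatine cycling none of 5 was higher and 2 were lower (4 lower in the deposited TPM). Of all tested genes 20% were called higher and 19.9% lower.

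**Figure D3:**
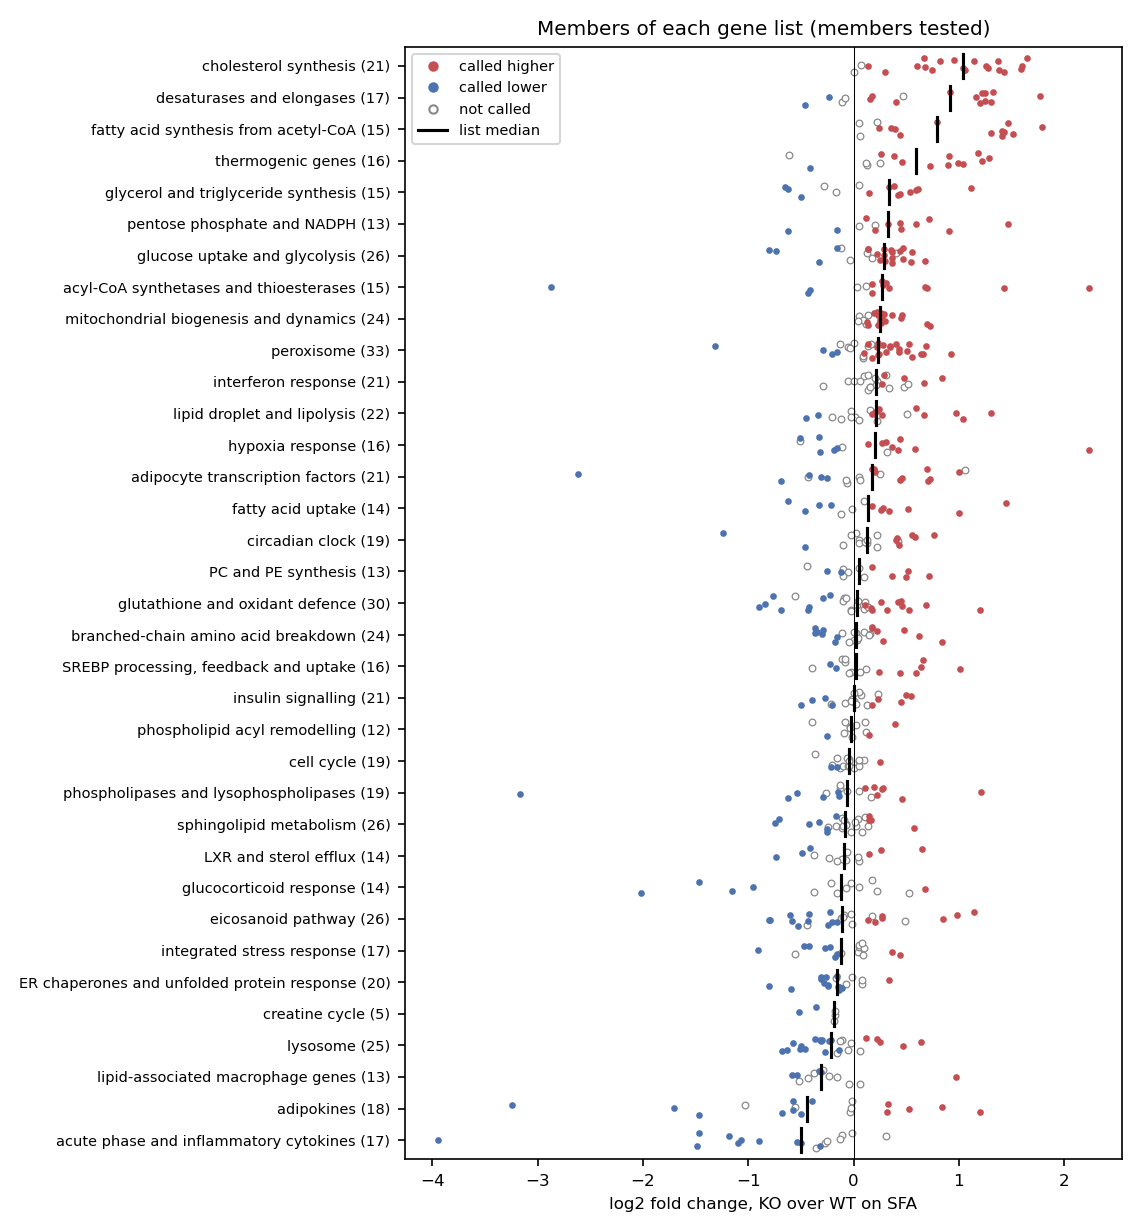
Each point is a member of a gene list and the x axis is its log2 fold change of KO over WT on SFA. Filled points were called, open points were not, bars are list medians, and the number of members tested stands in brackets. Medians ran from -0.50 for the acute phase list to 1.04 for cholesterol synthesis, and most lists held members on both sides of 0.

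Adipokines and other secreted factors of fat differed in direction. Of 18 tested, 5 were higher and 8 lower (median -0.45, and 3 and 8 in the deposited TPM). Lep, leptin, was at 4251, 3973, 4205 and 4110 CPM in WT and 2759, 2668, 2376 and 2525 CPM in KO (log2 fold change -0.68, SE 0.077, adjusted p = 2.11e-07), and Adipoq, adiponectin, at 2014, 2165, 1879 and 2023 CPM and 1276, 1262, 1518 and 1385 CPM (-0.57, SE 0.079, adjusted p = 4.17e-06). Both hormones were lower in every KO library than in any WT library. Sfrp5, a secreted Wnt antagonist, was at 279.5, 250.1, 245 and 255 CPM in WT and 66.05, 66.4, 84.8 and 99.5 CPM in KO (-1.70, SE 0.15, adjusted p = 9.83e-09), and Rarres2, chemerin, fell by 0.39. Rbp4, the retinol carrier, rose from 208, 278, 255 and 289 CPM to 624, 547, 659 and 539 CPM (1.20, SE 0.081, adjusted p = 7.95e-11). Resistin (Retn) rose by 0.32, Nampt by 0.53 and Igf1 by 0.33. Metrnl fell by 0.50 and Lcn2 by 1.47. Agt, angiotensinogen, fell by 0.57 (adjusted p = 0.0267), a call lost without KO replicate 2, KO replicate 4, WT replicate 1 or WT replicate 4. Fgf21, Nrg4, Apln, Bmp8a and Serpina12 were not called, and Fgf21 was at most at 1.06 CPM in the 8 libraries.

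Many acute-phase genes were lower. Of 17 acute-phase and cytokine genes none was higher and 10 were lower (median -0.50). Hp, haptoglobin, was at 3901, 3430, 3987 and 4046 CPM in WT and 1490, 1259, 1566 and 1140 CPM in KO (-1.49, SE 0.11, adjusted p = 4.91e-10). Serpina3n fell by 0.90, C3, the central complement component, by 1.07 and Ptx3 by 1.18, while the cytokine genes Tnf (-0.36) and Il1b (-0.11) were not called. Of 14 glucocorticoid-responsive genes 1 was higher and 4 were lower, where 20% of all tested genes were called higher and 19.9% lower. Hsd11b1, which regenerates active glucocorticoid inside cells, was at 66.97, 67.4, 59.1 and 65.6 CPM in WT and 30.6, 26.8, 31.2 and 28.4 CPM in KO (-1.15, SE 0.11, adjusted p = 1.73e-08), and the metallothioneins Mt1 and Mt2 fell by 0.95 and 2.02. The receptor-induced genes Fkbp5 (-0.38) and Tsc22d3 (-0.16) were not called. Of 21 interferon-response genes 5 were higher and none lower (median 0.21, 2 and 2 in the deposited TPM), against the same 20% and 19.9%. Ifit3 was at 26.3, 31.5, 28.8 and 32.3 CPM in WT and 58.6, 46.9, 52.4 and 30.8 CPM in KO, and Rsad2 at 19, 17.7, 23.8 and 17.2 CPM and 46.5, 36.7, 38.2 and 17.5 CPM. KO replicate 4 lay within or near the WT values for both genes. The count of interferon genes called higher was 11 without KO replicate 4 and 3 without KO replicate 3. With KO replicates 1 and 3 both left out it was 0, and 1 was lower.

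Most endoplasmic reticulum chaperones were lower. Of 20 chaperones and genes of the unfolded protein response 1 was higher and 14 were lower (median -0.16). Pdia4, a protein disulfide isomerase, was at 86.5, 83.7, 81.8 and 78.1 CPM in WT and 53.05, 54.7, 52.7 and 59.3 CPM in KO (-0.59, SE 0.05, adjusted p = 2.56e-09). Sdf2l1 fell by 0.80, Ern1, the IRE1 sensor, by 0.31 and Xbp1, its target, by 0.24. Hspa5, the chaperone BiP, was not called (-0.01), and Dnajb9 rose by 0.34. Of 17 genes of the integrated stress response 2 were higher and 7 lower (median -0.12), against 20% and 19.9% of all tested genes. Phgdh, which starts serine synthesis, was at 221, 222, 185 and 242 CPM in WT and 109.7, 104, 113 and 136 CPM in KO (-0.91, SE 0.094, adjusted p = 8.07e-08), whereas Psph, the last enzyme of that route, rose by 0.44 and Asns by 0.37. Atf4 (0.04) was not called.

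Among genes for defence against oxidants and lipid peroxides, 11 of 30 were higher and 8 lower (median 0.03, and 7 and 14 in the deposited TPM). Of all tested genes 20% were called higher and 19.9% lower. Gss, glutathione synthetase, was at 17.1, 16.2, 15.3 and 16.9 CPM in WT and 9.13, 8.38, 8.65 and 8.91 CPM in KO (-0.90, SE 0.056, adjusted p = 1.48e-11). Gpx3 and Gpx1, glutathione peroxidases, fell by 0.84 and 0.76. Gpx4, which reduces phospholipid hydroperoxides in membranes, was not called (-0.09, SE 0.074, adjusted p = 0.368), nor was Aifm2 (0.03). Cat, catalase, was at 991, 1055, 1002 and 1080 CPM in WT and 1617, 1579, 1781 and 1678 CPM in KO (0.69, adjusted p = 2.34e-09), Gsta4, which conjugates the lipid peroxide product 4-hydroxynonenal, rose by 1.20 and Hmox1 by 0.42. Extracellular Sod3 fell by 0.69 while cytosolic Sod1 rose by 0.18.

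Genes for lipid mediators moved in both directions. Of 26 eicosanoid genes 7 were higher and 11 lower (median -0.11), against 20% and 19.9% of all tested genes. The split was 5 and 13 in the deposited TPM, and 6 and 5 without KO replicate 3 or without WT replicate 1. With KO replicates 1 and 3 both left out it was 6 and 3. Enzymes and receptors stood in both directions. Among those lower were the cyclooxygenase genes Ptgs1 (-0.24) and Ptgs2 (-0.58), the prostaglandin E synthase Ptges (-0.79) and the leukotriene genes Alox5 (-0.43) and Alox5ap (-0.80). Also lower were the prostacyclin receptor gene Ptgir (-0.53) and Hpgd (-0.16), which degrades prostaglandins. Among those higher were the prostaglandin E synthase genes Ptges2 (0.27) and Ptges3 (0.14). Ptger3, a prostaglandin E2 receptor that restrains lipolysis in adipocytes, was at 239, 268, 264 and 260.1 CPM in WT and 594, 555, 609 and 511 CPM in KO (1.14, SE 0.062, adjusted p = 2.19e-12), Ptgfr rose by 0.85, and Ephx2, the soluble epoxide hydrolase, by 0.98. Of 26 sphingolipid genes 4 were higher and 7 lower (median -0.08, and 1 and 12 in the deposited TPM), against 20% and 19.9% of all tested genes. Sgms1, sphingomyelin synthase, rose by 0.57 and Sphk1, a sphingosine kinase, fell by 0.75. Of 14 LXR-target and sterol-efflux genes 3 were higher and 3 lower (1 and 8 in the deposited TPM), against the same shares of all genes. Abca1 (0.04) and Abcg1 (-0.07), the classical LXR targets, were not called, Scarb1, the HDL receptor, rose by 0.65 and Cyp27a1, which makes an oxysterol, fell by 0.74.

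The remaining lists held named changes of fair size. Egln3, a prolyl hydroxylase that acts on HIF and is induced by it, was at 1.92, 3.06, 3.06 and 2.93 CPM in WT and 13.9, 11.7, 12.7 and 13.5 CPM in KO (2.24, SE 0.13, adjusted p = 7.15e-12). Of 16 hypoxia-response genes 8 were higher and 5 lower (5 and 6 in the deposited TPM). Of all tested genes 20% were called higher and 19.9% lower. Hif1a rose by 0.58 and Adm fell by 0.51. Of 21 adipocyte transcription factors 9 were higher and 5 lower (6 and 8 in the deposited TPM). Cebpb rose by 0.71 and Pparg by 0.20, and Klf15 fell by 0.69. Of 21 insulin signalling genes 5 were higher and 4 lower (4 and 8 in the deposited TPM), against 20% and 19.9% of all tested genes. The receptor gene Insr stood at 0.00. Tbc1d4, which links insulin to glucose transporter traffic, rose by 0.50. Of 19 clock genes 6 were higher and 2 lower (5 and 2 in the deposited TPM), against the same 20% and 19.9% of all tested genes. Rora rose by 0.56. Of 25 lysosomal genes 5 were higher and 14 lower (median -0.21, and 2 and 19 in the deposited TPM), with Ctsa lower by 0.68. Of 13 genes of lipid-associated macrophages 1 was higher, Plin2, and 4 were lower, against 20% and 19.9% of all tested genes. The number lower was 2 without KO replicate 3 and 8 in the deposited TPM. General macrophage markers, of which 9 of 10 were lower, moved with this list, and their part in it was not tested. Trem2 (-0.29) was not called. Of 19 cell cycle genes 1 was higher and 2 lower, against the same 20% and 19.9% of all tested genes. The split was 0 and 1 without KO replicate 3, KO replicate 4 or WT replicate 1, and 0 and 4 in the deposited TPM.

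Marker lists were summed in each library to check the tissue label and to set cell content beside these results. The 8 adipocyte markers summed to 25788 to 27438 CPM in WT and 24512 to 28256 CPM in KO, so markers of the labelled tissue were abundant in all 8 libraries, and 2 were higher and 2 lower. The 10 markers of stromal progenitors summed to 3170 to 3314 CPM in WT and 1834 to 2591 CPM in KO, with none higher and 8 lower. The 10 macrophage markers summed to 1257 to 1421 CPM and 764 to 1007 CPM, with none higher and 9 lower. These ranges did not overlap. In bulk tissue, fewer cells of a type and less RNA of that type per cell cannot be told apart, and the part of these markers in the falls of secreted, lysosomal, acute-phase, eicosanoid and lipid-associated macrophage genes was not tested. With KO replicates 1 and 3 left out, 4 of the stromal markers and 6 of the macrophage markers were still called lower. The 8 markers of blood vessel endothelium summed to 872 to 1106 CPM in WT and 1030 to 1425 CPM in KO, with 6 higher and none lower, but with 2 higher without KO replicate 2 or without WT replicate 4, and 0 in the deposited TPM. Of 8 mast cell markers none was higher and 3 were lower, or 1 without KO replicate 3 or without WT replicate 2. The 8 brown adipocyte markers summed to 123 to 170.0 CPM in WT and 217 to 245 CPM in KO, with 6 higher and none lower, while the defining marker Ucp1 averaged 0.504 ± 0.264 CPM in WT and 0.328 ± 0.0723 CPM in KO. Single markers moved apart from their lists: Acta2, smooth muscle actin, fell by 1.17 (adjusted p = 1.38e-08) while Myh11 (0.16) was not called, and S100b fell by 1.19 while Mbp, the myelin basic protein gene of the same Schwann cell list, rose by 0.27.

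**Figure D4:**
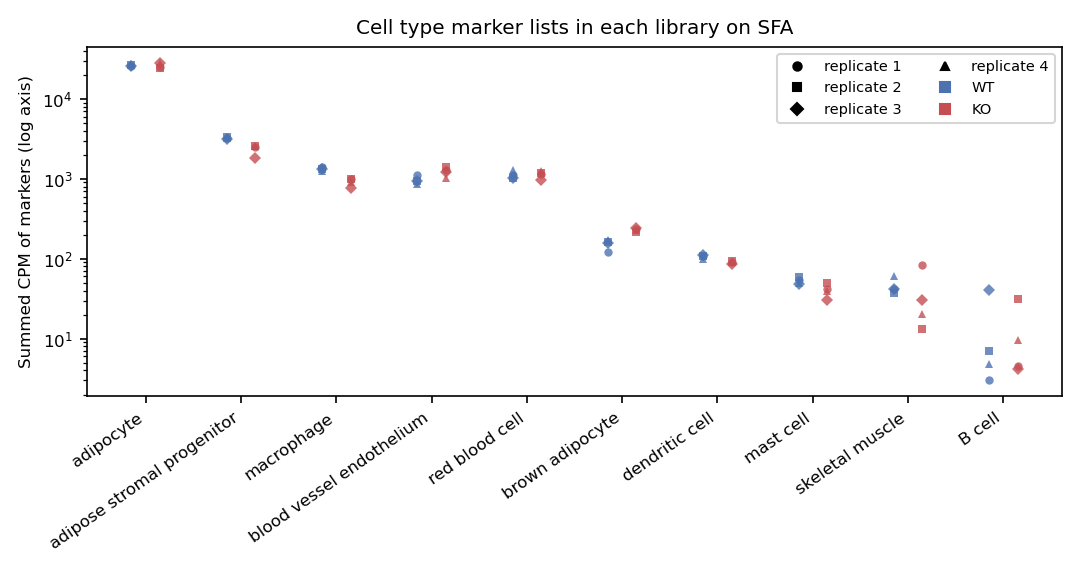
Summed CPM of 10 marker lists on a log axis, with 1 point per library (blue WT, red KO, shape for the replicate number). Stromal and macrophage markers were lower in all 4 KO libraries than in any WT library, adipocyte markers overlapped, and the B cell list was high in WT replicate 3 and KO replicate 2.

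Whether the genotype effect on saturated fat differed from that on the other diets was tested directly, as the difference of 2 effects that share no library. Against n6, 137 of 15259 genes differed (0.898%), 66 with a higher and 71 with a lower effect on SFA, and leaving out 1 library at a time gave 48 (without KO replicate 1 on SFA) to 345 (without WT replicate 4 on n6). Against n3, 125 differed (0.819%), 86 higher and 39 lower, and leaving out 1 library gave 8 (without WT replicate 2 on SFA) to 1300 (without KO replicate 4 on n3). With KO replicates 1 and 3 on SFA both left out the counts were 42 and 4. The counts thus moved with single libraries. The genes named next from the 6 with the smallest p in each test were called in each of the 16 settings that leave out 1 library. They were chosen for their small p in these same data. With only 4 genes called against n3 without KO replicates 1 and 3, not all 6 of that test kept the call there.

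Several genes had a higher genotype effect on SFA than on n6. Map1a, a microtubule-associated protein, was at 111, 89.2, 96.97 and 97.1 CPM in WT and 195, 208, 194 and 179 CPM in KO on SFA, but at 125, 113, 111 and 124 CPM and 127, 121, 134 and 117 CPM on n6. The genotype effects were 0.98 and 0.08 on the log2 scale, a difference of 0.90 (SE 0.1, adjusted p = 7.52e-05). It also differed from the effect on n3, by 0.68 (SE 0.1, adjusted p = 0.00437). Tlcd2, a TLC-domain protein reported to limit polyunsaturated chains in membrane phospholipids, was at 14.9, 17.9, 15.98 and 19.1 CPM in WT and 89.3, 72.5, 77.2 and 54.5 CPM in KO on SFA, and at 9.14, 10.4, 9.67 and 10.5 CPM and 17.7, 19.7, 17.1 and 15.8 CPM on n6. Its effect was larger on SFA by 1.29 (SE 0.18, adjusted p = 0.000658). Asf1b, a histone chaperone, had effects of 0.98 on SFA and -0.14 on n6, a difference of 1.12 (SE 0.14, adjusted p = 0.000269).

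Members of the lipid lists differed from n6 in both directions. Scd1 rose by 0.92 on SFA and 1.72 on n6, a difference of -0.80 (SE 0.11, adjusted p = 0.000531). On n6 its WT libraries were at 18600, 24603, 18299 and 21032 CPM and its KO libraries at 67702, 71916, 64990 and 66802 CPM. In each genotype all 4 libraries on SFA lay above the 4 on n6. Acss2 differed by -0.93 (adjusted p = 0.000122), Insig1 by -0.79 (adjusted p = 0.00155), the citrate carrier gene Slc25a1 by -0.57 and Cidea by -1.50, each called in all 16 settings. Scd2, Elovl6, Acacb and Agpat2 differed by -0.44, -0.41, -0.47 and -0.53, but were called in 11, 4, 2 and 15 of the 16. Hsd17b7, of cholesterol synthesis, and G6pdx had effects larger on SFA by 0.38 and 0.35, called in 6 and 2 of the 16. Fads2 had an effect larger on SFA by 0.68 (SE 0.13, adjusted p = 0.013, all 16). Among the acyltransferases, Lpgat1 was at -0.01 on SFA and -0.57 on n6, a difference of 0.55 (SE 0.093, adjusted p = 0.00528, all 16).

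Against n3, Acsl3 rose more on SFA, by 0.71 (SE 0.11, adjusted p = 0.00993). On n3 it was at 28.7, 22.7, 24.8 and 23.3 CPM in WT and 69.4, 74.2, 64.8 and 79 CPM in KO, so that the WT libraries of the 2 diets overlapped and the KO libraries did not. Scarb1 rose by 0.65 on SFA and stood at 0.14 on n3, a difference of 0.51 (SE 0.085, adjusted p = 0.0128). Mecom, a zinc-finger transcription factor, had effects of 0.45 and -0.39 (0.84, SE 0.13, adjusted p = 0.00437). The tight junction gene Cldn15 had effects of 0.16 (-0.00 in the deposited TPM) and -0.26 (difference 0.43, adjusted p = 0.0128). Its call on SFA was lost without KO replicate 3 (adjusted p = 0.0606) or WT replicate 3 (0.0577). Sorbs2 fell by 0.62 on SFA and by 1.20 on n3. The effect on Gss was lower on SFA, by -0.46 on the log2 scale (SE 0.078, adjusted p = 0.0128), called in all 16 settings. Pla2g5, Lss and Phgdh also differed (-1.26, 0.51 and -0.59), in 6, 7 and 5 of the 16.

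**Figure D5:**
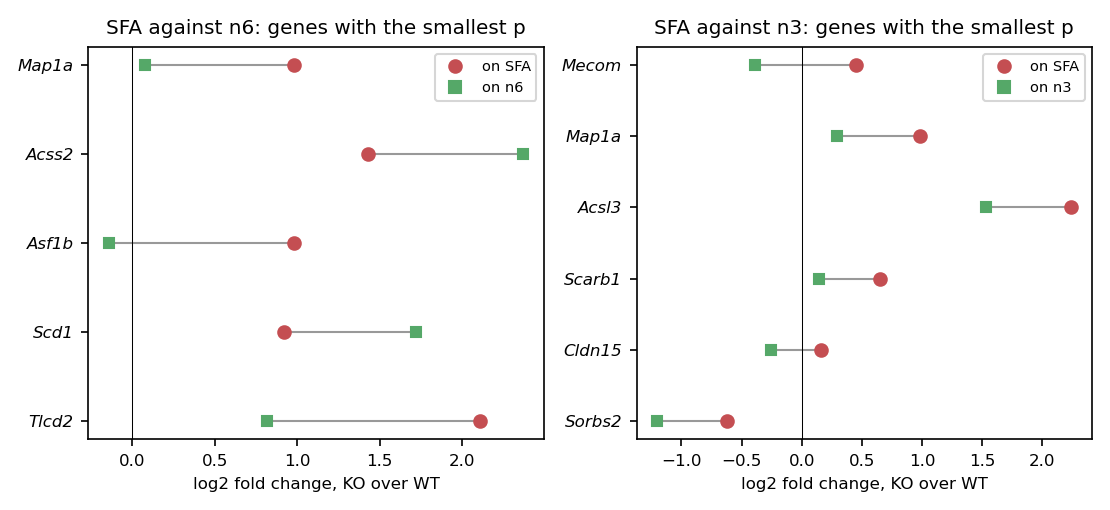
Log2 fold change of KO over WT on SFA (red circles) and on n6 or n3 (green squares) for genes among the 6 with the smallest p in each difference test, joined by a line. Map1a, Asf1b and Tlcd2 had higher effects on SFA than on n6, and Acss2 and Scd1 had lower ones.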

How the data were processed

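Polyadenylated RNA from iWAT was sequenced as paired ends on a NovaSeq, per the labels' protocols. The submitters' processing notes name fastp 0.23.2, Salmon and mm10. Annotation and options: not given in the sources used here. The authors deposited 1 table of estimated counts per gene, not normalized, and 1 table of TPM (a unit scaled for inferred length). The count table's altered gene names were matched to GENCODE M21 symbols (34884 of 35727).

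Estimated counts were rounded and tested with edgeR 4.0.16 (R 4.3.3) after TMM scaling and a filter on low counts (filterByExpr, minimum count 10), with 1 coefficient per group over all 24 libraries (18 residual degrees of freedom) and Benjamini-Hochberg adjustment at 0.05. SE is the log2 fold change divided by the square root of F. The counts of 48.5 to 57.4 M (mega) per library leave genes under about 1 CPM least precise. Alternatives were DESeq2 1.42.0, other scalings and filters, limma 3.58.1 on log2 TPM with a pseudocount of 1 or 0.1, a replicate block and leaving out libraries. The edgeR code was tested on simulated counts.

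Genes named were the 12 largest rises and 12 largest falls whose groups did not overlap, at a mean log2 CPM from 1 upwards, predicted genes left out, the 6 most abundant changed at least 1.5-fold, the 3 smallest p of each list, all members of 3 lists (phospholipid acyl remodelling, SREBP processing and adipokines) and the 6 smallest p of each difference test. Some of these genes are not reported here. Other list members and Clstn3 were chosen after their values were seen. The members and lists were chosen with earlier results of these data known.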

Additional observations from a re-analysis of the deposited data

Results flagged for a closer look

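In 366 pairs of a named gene and a group, 17 had 1 library far from the other 3 (by Dixon's test at its 95% critical value), and chance flags about 1 in 20. In KO these were Saa3 at 1.692 CPM, Nnat at 133.5 CPM, Cyp2f2 at 1.558 CPM, Itgad at 15.25 CPM, Lpgat1 at 1870 CPM, Cyp27a1 at 20.36 CPM, Cd63 at 108.6 CPM, Mcm5 at 8.48 CPM and Sorbs2 at 15.1 CPM. In WT they were Pla2g5 at 3.286 CPM, Acsl1 at 3118 CPM, Rnf145 at 78.31 CPM, G6pdx at 295.0 CPM, Pdia6 at 171.8 CPM, Egln3 at 1.92 CPM, Flt3 at 2.782 CPM and Asf1b at 3.529 CPM.

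The genotype effect differed between diets, by a test of the difference itself, in the genes that follow, with log2 differences of SFA minus the other diet. Against n6 they were 0.90 for Map1a, -0.93 for Acss2, 1.12 for Asf1b, -0.80 for Scd1 and 1.29 for Tlcd2. Against n3 they were 0.84 for Mecom, 0.68 for Map1a, 0.71 for Acsl3, 0.51 for Scarb1, 0.43 for Cldn15 and 0.58 for Sorbs2.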

How the results depend on the processing

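The count of 6086 genes called on SFA was between 5269 and 5945 without 1 SFA library, 6310 with DESeq2 and 4053 with KO replicates 1 and 3 left out, a choice made after seeing the data, as was leaving out WT replicate 3 and KO replicate 2 (5542). The 137 genes whose effect differed between SFA and n6 were 48 to 345 without 1 library, 415 with DESeq2, 266 with limma on log2(TPM + 1), 43 without WT replicate 3 and KO replicate 2, and 42 without KO replicates 1 and 3. The 125 that differed from n3 were 8 to 1300 without 1 library, 623 with DESeq2, 27 with log2(TPM + 1), 23 with log2(TPM + 0.1), 9 with log2(TPM + 1) and no filter, 56 with no filter on counts, 33 without WT replicate 3 and KO replicate 2, and 4 without KO replicates 1 and 3. The cause was not tested.

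Same-numbered libraries did not deviate together in every pair (correlations -0.01293, -0.03033, 0.03311 and 0.2149), so the numbers were not treated as pairing. With the replicate number as a block 6045 genes were called on SFA, 5909 of them the same gene and direction, and 70 differed from n3.

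Of 168 named genes called, 11 lost the call in 40 of 1344 fits without 1 SFA library and none reversed. In other settings 27 lost it in 77 of 2012, and 4 reversed, all on the TPM scale: Lpcat3 at 0.23 in TMM-rescaled TPM, and Lpcat3 at 0.07, Lclat1 at -0.03, Insig2 at -0.02 and Cldn15 at -0.00 in deposited TPM with either pseudocount or no filter. Of 35 gene lists, 14 of 280 counts without 1 library had another majority or moved by over 1.5 times, and 63 of 420 in other settings.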

Other observations

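In these libraries 2 pseudogenes, chosen after their values were seen, were at or near 0 CPM in all WT libraries on SFA and present in all KO libraries. Gm7049, a processed pseudogene at chr13:62813076-62814787 (plus strand), was at 0.0881, 0.0752, 0.187 and 0.103 CPM in WT and 149.7, 134, 159 and 140.3 CPM in KO on SFA. Its log2 fold change was 10.30 (SE 0.15, adjusted p = 1.43e-23 in edgeR's test), and it was 9.50 on n6 and 10.18 on n3. It shares 1200 of its 1688 words of 25 bases (71.1%) with Me1, the cytosolic malic enzyme, which stood at 1319 CPM in WT and 3656 CPM in KO. The level of Gm7049 in KO was 3.99% of that of Me1, and how the counting divided reads between them was not tested.

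Gm11868, a pseudogene at chr4:18844202-18845679 (minus strand), was at 0 in all 4 WT libraries and at 3.07, 3.08, 3.25 and 2.96 CPM in KO (adjusted p = 4.98e-13 in edgeR's test). It shares 934 of 1454 words (64.2%) with Cyb5r4, a cytochrome b5 reductase, which fell by 0.25 on the log2 scale (adjusted p = 7.45e-05). In KO its level was 10.7% of that of Cyb5r4. Me1 (chr9:86581371-86695953) and Cyb5r4 (chr9:87022014-87077774) lie close together. Within 5 Mb on either side of Me1, 22 of 40 tested genes were called (55%) and 2 were called with at least a 2-fold change (5%), against 39.9% and 3.28% of all tested genes, and whether these shares differ was not tested. The source of the reads assigned to these pseudogenes was not tested.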
